A study of Homo sapiens with 4 samples.

Results

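The 10 mRNAs described here encode the core proteins of the microRNA pathway. They comprise 4 Argonaute mRNAs (AGO1, AGO2, AGO3 and AGO4), 3 TNRC6 mRNAs (TNRC6A, TNRC6B and TNRC6C), and DICER1, DROSHA and DGCR8. They are 10 of the 44715 genes in the tables and were taken by name. The set was chosen by the levels of AGO2 and AGO3, each of which was at least 2 times as high in either PHGDH precipitate as in either control precipitate. The values of those 2 genes are therefore a description and carry no test. The libraries come from RNA immunoprecipitation followed by sequencing (RIP-seq) in HEK293T, a line from human embryonic kidney cells into which the large T antigen of SV40 was introduced. The groups were 2 precipitates made with an antibody against PHGDH, the enzyme of the first step of serine synthesis, and 2 control precipitates made with an anti-IgG antibody (called IgG below). All 4 used native lysates of that 1 cell line, and no library of unprecipitated RNA was analysed here. The study calls the 2 replicates biological.

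In the nucleus, the RNase III enzyme DROSHA and its RNA-binding partner DGCR8 form the Microprocessor, which cuts hairpins out of long primary microRNA transcripts. In the cytoplasm, DICER1 cuts the hairpin to a duplex, and 1 strand is loaded into an Argonaute protein. The Argonaute finds target mRNAs mainly through the seed of the microRNA, and TNRC6 proteins, also called GW182 proteins, recruit the deadenylases that silence the target. DROSHA and DGCR8 regulate each other: the Microprocessor cuts a hairpin in the DGCR8 mRNA itself.

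That feature can be seen in the annotation. Of the 9 members searched (all but AGO2), DGCR8 and DICER1 hold microRNA genes within their spans. They are shown because cutting at the hairpins of the first gene would also cut its mRNA. The capitals mark the seed, bases 2 to 8, and the sequences are those of RefSeq on GRCh38.p14.
hsa-miR-3618: uGUCUACAuuaaugaaaagagc
hsa-miR-1306-5p: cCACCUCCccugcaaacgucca
hsa-miR-1306-3p: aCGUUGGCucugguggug
hsa-miR-3173-5p: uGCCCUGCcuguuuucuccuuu
hsa-miR-3173-3p: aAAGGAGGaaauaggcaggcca
No 2 of these 5 seeds are the same. The mature miR-3618 lies at chr22:20085797-20085818 and the miR-1306 arms at chr22:20086072-20086093 and chr22:20086112-20086129, on the + strand like DGCR8. The miR-3173 arms lie at chr14:95137961-95137982 and chr14:95137923-95137944, on the - strand like DICER1. As genes of their own, MIR3618 and MIR1306 had 0 reads in all 4 libraries, and MIR3173 had a single read (0.822 CPM) in anti-PHGDH replicate 2. Values are in CPM, reads of a gene scaled to a common total of all reads assigned to genes. Where a gene has no read, its level may still be as high as that of 3 reads: 0.891 CPM in anti-PHGDH replicate 1, 2.47 in replicate 2, 0.774 in IgG replicate 1 and 1.90 in IgG replicate 2. Of 1774 microRNA genes in the tables, 62 had a read in any library, so these libraries report on the mRNAs of the pathway and hardly on microRNA genes.

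The libraries held 3365837 and 1216477 reads (anti-PHGDH replicates 1 and 2) and 3875746 and 1579430 reads (IgG replicates 1 and 2). IgG replicate 1 stands apart. It listed 4148 genes above 0 against 14518 to 16767 in the other libraries, and it was at 0 for 61.9% of the 9524 genes tested, which are those that reached 5 CPM in 2 or more libraries. All 10 mRNAs passed that filter, AGO4 through the anti-PHGDH libraries alone. Mitochondrially encoded genes took 28.8% of the reads of anti-PHGDH replicate 1 and 3.36% to 8.67% of the others. PHGDH mRNA, which encodes the precipitated protein, was at 6550.2 and 1531 CPM in the PHGDH precipitates and at 0 and 461 CPM in the controls. All 6 transcripts listed as HEK293T markers were above 0 in the 3 other libraries, whereas IgG replicate 1 held 2 of them, NEFL and NEFM. Among 6 markers of other cell types, PTPRC, HBB and CDH5 were at 0 in every library, and the summed level of the 6 was 7.60 to 12.3 CPM outside IgG replicate 1 and 0 in it, nearly all of it from COL1A1 (8.62, 12.3 and 7.60 CPM outside that library).

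Together the 10 mRNAs were more abundant with anti-PHGDH than with IgG in all pairs of libraries. They summed to 701 CPM (95% Wilson interval 673 to 730, from 2359 reads) and 414 CPM (379.7 to 452, 504 reads) in anti-PHGDH replicates 1 and 2. With IgG they summed to 32.5 CPM (27.3 to 38.7, 126 reads) and 236 CPM (213 to 261, 372 reads). The sum in anti-PHGDH replicate 2 was 1.76 times that in IgG replicate 2 (95% interval 1.54 to 2.02), and 1.69 times without AGO2 and AGO3, on whose values the set was chosen (1.45 to 1.96). Intervals of sums and ratios cover counting error only, and those of ratios are exact. The antibodies were thus less far apart within replicate number 2 than the IgG libraries were from each other. These are levels in RNA precipitated from bulk lysates. They are not levels in the cells, for which no library of unprecipitated RNA was analysed.

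**Figure D1:**
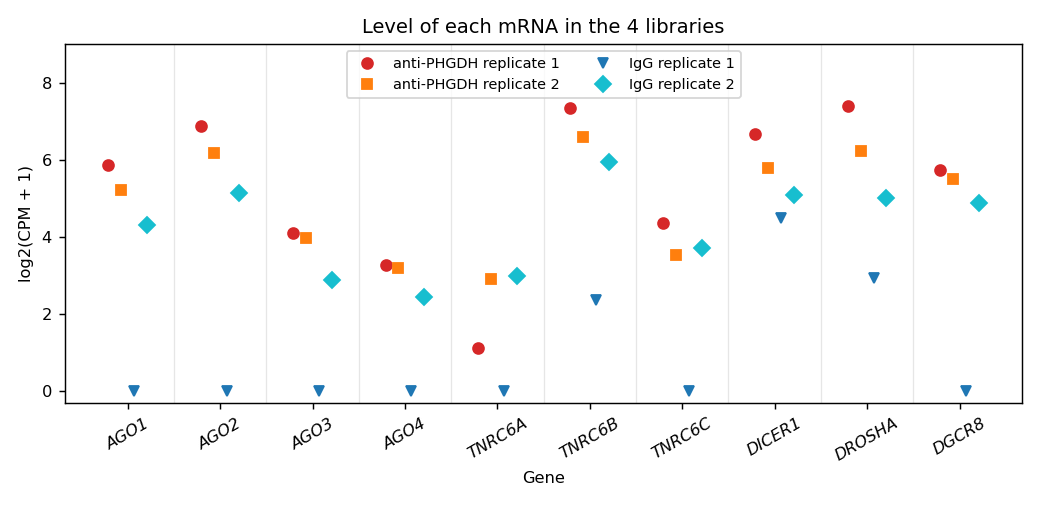
Level of the 10 mRNAs, as log2(CPM + 1), with 1 point for each of the 4 libraries. IgG replicate 1 lies at 0 for 7 of the 10 genes (61.9% of all genes tested). Both anti-PHGDH points lie above both IgG points for 8 of the 10, TNRC6A and TNRC6C being the others. The same held for 38.3% of all genes tested.

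AGO2, the Argonaute that can slice a perfectly paired target, reached 116 CPM in the first and 70.7 CPM in the second PHGDH precipitate (mean 93.4 ± 32.2, SD, n = 2). The controls, in the same order, had 0 and 34.2 CPM (mean 17.1 ± 24.2, SD, n = 2). Pairs of values are given in this order, replicate 1 before replicate 2, from here on. These values rest on 391, 86, 0 and 54 reads, and the groups did not overlap. Between the libraries numbered 2, AGO2 was 2.07 times as high in the PHGDH precipitate as in the control (95% interval 1.45 to 2.96). IgG replicate 2 was itself at least 44.2-fold higher than IgG replicate 1, taking 3 reads as the bound for that library.

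AGO3, which has no strong slicing activity on most targets, was much closer to the limit of detection. It was at 16.3 and 14.8 CPM in the PHGDH precipitates (mean 15.6 ± 1.09, SD, n = 2) and at 0 and 6.33 CPM in the controls (mean 3.17 ± 4.48, SD, n = 2). Its 2-fold difference within replicate number 2 came from 18 reads against 10, a ratio of 2.34 with an interval of 1.02 to 5.67. Both anti-PHGDH values lay above both IgG values, but the size of the difference was poorly fixed at this depth.

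AGO1 and AGO4, the remaining Argonautes, lie next to AGO3 in a row on chromosome 1. In RefSeq the + strand holds AGO4 (35807636 to 35857890), then AGO1 (35869761 to 35930532), then AGO3 (35930718 to 36072500), with 185 bases between AGO1 and AGO3. AGO1 was at 57.6 and 36.2 CPM in the PHGDH precipitates and at 0 and 19.0 CPM in the controls. AGO4 was at 8.62 and 8.22 CPM in the PHGDH precipitates and at 0 and 4.43 CPM in the controls, or 29, 10, 0 and 7 reads. Both genes had non-overlapping groups, and within replicate number 2 the ratios were 1.90 (1.17 to 3.14) for AGO1 and 1.85 (0.637 to 5.74) for AGO4. AGO1 and AGO4 together, without the pair that led to the choice, had a summed ratio of 1.89 (1.22 to 2.96). That sum rests mostly on AGO1, with 30 reads in IgG replicate 2 beside 7 of AGO4. AGO4 also passed the filter through the anti-PHGDH libraries alone, so the ratio is a description. AGO1 and AGO4 are paralogs, and how reads matching several genes were counted is not given in the sources used here. A few reads could therefore be split between them.

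DROSHA, on the - strand of chromosome 5 (31400494 to 31532093), met the 2-fold condition as well, although it was not among the genes that led to the choice. Its level was 168 and 74.0 CPM in the PHGDH precipitates (mean 120.8 ± 66.2, SD, n = 2) and at 6.71 and 31.0 CPM in the controls (mean 18.9 ± 17.2, SD, n = 2). These are 564, 90, 26 and 49 reads, so DROSHA, unlike AGO2 and AGO3, was measured above 0 in every library. The ratio within replicate number 2 was 2.38 (1.67 to 3.45), and the ratio of anti-PHGDH replicate 1 to IgG replicate 2 was 5.40 (4.03 to 7.39). Over all 4 libraries the log2 fold change was 2.84, with an SE of 2.06 and a limma adjusted p = 0.677.

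DGCR8 (chromosome 22, 20080241 to 20111872), the partner of DROSHA, showed a smaller difference outside IgG replicate 1. It was at 52.3 and 44.4 CPM in the PHGDH precipitates (mean 48.3 ± 5.59, SD, n = 2) and at 0 and 28.5 CPM in the controls (mean 14.2 ± 20.1, SD, n = 2). Its ratio within replicate number 2 was 1.56 (1.03 to 2.37), and its log2 fold change 3.18, with an SE of 2.59 and a limma adjusted p = 0.677. That fold change exceeded the one of DROSHA although the ratios to IgG replicate 2 were smaller, since DGCR8 was at 0 in IgG replicate 1 and DROSHA was not.

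DICER1, on the - strand of chromosome 14 (95086228 to 95158010), was the member with the most reads in IgG replicate 1, 84. It was at 102 and 54.3 CPM in the PHGDH precipitates (mean 77.9 ± 33.5, SD, n = 2) and at 21.7 and 32.9 CPM in the controls (mean 27.3 ± 7.95, SD, n = 2). As a ratio, the IgG libraries were closer to each other for this gene than for the other 9, and both lay below both anti-PHGDH libraries. The ratio within replicate number 2 was 1.65 (1.13 to 2.42), and the log2 fold change 1.44, with an SE of 2.02 and a limma adjusted p = 0.677. DICER1-AS1, which overlaps the start of DICER1 on the other strand, had 9.21 and 6.58 CPM in the PHGDH precipitates and 0 and 8.23 CPM in the controls. Whether counting used strand is not given in the sources used here, so reads of the overlap cannot be assigned.

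The 3 TNRC6 mRNAs, which encode the scaffolds between Argonaute and the deadenylases, differed in whether the groups overlapped. In RefSeq, TNRC6A lies on chromosome 16 (24610205 to 24826218), TNRC6B on 22 (40044834 to 40335808) and TNRC6C on 17 (77957557 to 78108835), each on the + strand. TNRC6B was at 159.8 and 94.5 CPM in the PHGDH precipitates and at 4.13 and 60.1 CPM in the controls, without overlap of the groups. Its ratio within replicate number 2 was 1.57 (1.19 to 2.08). TNRC6C was at 19.6 and 10.7 CPM in the PHGDH precipitates and at 0 and 12.03 CPM in the controls, so that IgG replicate 2 lay between the anti-PHGDH libraries. TNRC6A was at 1.19 and 6.58 CPM in the PHGDH precipitates and at 0 and 6.97 CPM in the controls, or 4, 8, 0 and 11 reads. IgG replicate 2 had the highest level of TNRC6A, and anti-PHGDH replicate 1 was at 0.171 times that level (0.0396 to 0.576) although it was the deeper library. The ratios within replicate number 2 were 0.888 (0.403 to 1.90) for TNRC6C and 0.944 (0.330 to 2.58) for TNRC6A, and neither interval excludes the 1.57 of TNRC6B. The end of TNRC6C overlaps TMC6 on the other strand in RefSeq. TMC6 was at 17.2 and 29.6 CPM in the PHGDH precipitates and at 1.03 and 17.7 CPM in the controls. Reads of this overlap cannot be assigned either, since the use of strand in counting is not given.

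**Figure D2:**
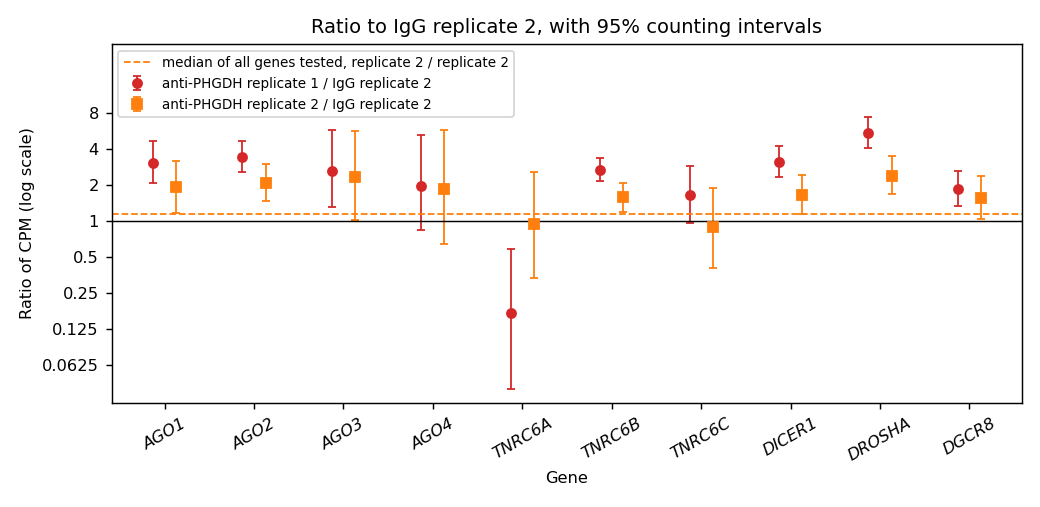
Ratio of CPM to IgG replicate 2 for each gene, on a log scale, for both anti-PHGDH libraries, with exact 95% intervals for counting error. The dashed line is the median of all genes tested within replicate number 2, 1.13. The widest intervals belong to the genes with the fewest reads, such as TNRC6A (0.330 to 2.58) and AGO4 (0.637 to 5.74).

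The 2-fold condition compares the lower of the PHGDH precipitates with the higher of the controls, on CPM + 1. It was met by 3 of the 10 mRNAs and by 9.30% of all genes tested. Inside the threshold were DROSHA (2.34-fold), AGO3 (2.15-fold) and AGO2 (2.04-fold). Just outside lay AGO1 (1.86-fold) and AGO4 (1.70-fold), and TNRC6A (0.275-fold) was farthest from it. The groups did not overlap, with anti-PHGDH higher, for 8 of 10, where the share of all genes tested was 38.3%. In the lower direction it was 0 of 10, against 6.16% of all genes, and 0 of 10 were 2-fold lower, against 0.0840%. The condition was the one that selected AGO2 and AGO3, so these counts describe the set and support nothing. Among all genes, 13.3% of those at 0 in IgG replicate 1 met the 2-fold condition and 2.87% of those above 0 did. Of the 10 mRNAs, 7 were at 0 there, and DROSHA met the condition among the other 3.

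The test across all genes called none of the 8 members it was applied to, of which AGO4 passed the filter through the PHGDH precipitates alone. It was limma on log2(CPM + 1), with Benjamini-Hochberg adjustment over the 9524 genes and a threshold of 0.05, and it called 0.0105% of genes higher and 0% lower. The limma adjusted p of the 8 members ran from 0.677 to 0.780, and 0 of the 8 had an unadjusted p under 0.05, which 2.74% of all genes had in the higher direction and 0% in the lower. The count was also 0 of 8, adjusted or unadjusted, in edgeR and in DESeq2. Neither called any of the 9524 genes. At an unadjusted p under 0.05, edgeR had 21 of them higher and 162 lower, and DESeq2 had 89 and 149. The log2 fold changes of all 10 ran from 0.53 (TNRC6A) to 3.95 (AGO2), with a median of 2.71 beside 1.92 for all genes tested. With 2 libraries per group, an exact permutation test cannot give a two-sided p below 0.333, and none was run. Without IgG replicate 1 the median was 1.08 for the 10 mRNAs and 0.14 for all genes. DROSHA then had a log2 fold change of 1.81 (limma adjusted p = 0.464), AGO2 of 1.38 and AGO1 of 1.22, whereas TNRC6A was at -0.97. That fit called 1.04% of genes higher and 0.0315% lower, and 0 of the 8 members (1 of the 8, DROSHA, had an unadjusted p under 0.05 in the higher direction, as did 7.39% of all genes). Both PHGDH precipitates lay above IgG replicate 2 for the same count of members as above, 8 of 10, and for 43.9% of all genes. Both were 2-fold above it for 3 of 10, against 10.0%.

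**Figure D3:**
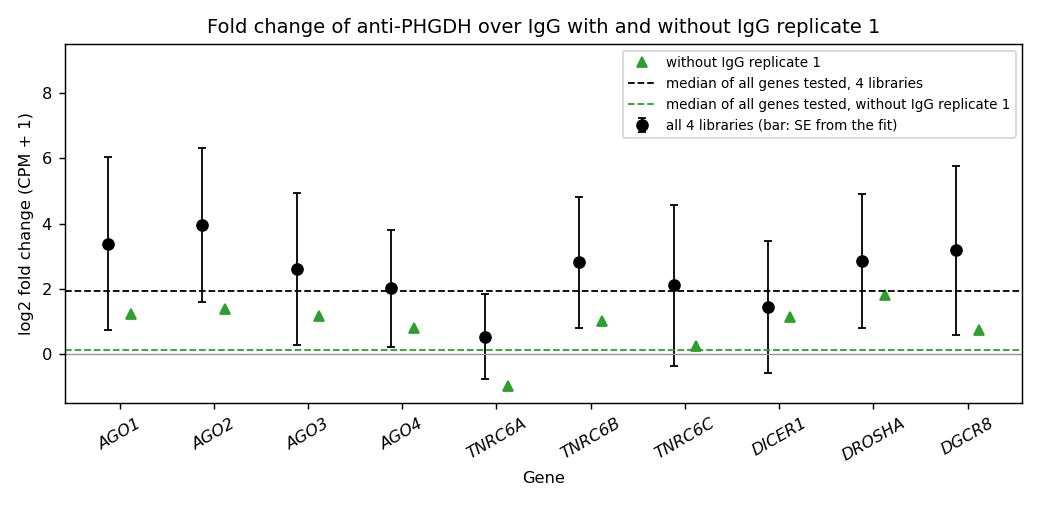
Log2 fold change of anti-PHGDH over IgG on CPM + 1, from all 4 libraries (black, with the SE of the limma fit) and without IgG replicate 1 (green). Dashed lines are the medians of all genes tested, 1.92 and 0.14, and the green points run from -0.97 (TNRC6A) to 1.81 (DROSHA).

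Within replicate number 2, which leaves IgG replicate 1 out, anti-PHGDH was above IgG for 8 of 10 members and for 63.1% of all genes tested. It was at least 1.5-fold above for the same count, 8 of 10, against 25.5% of all genes, and at least 2-fold above for 3 of 10, against 12.5%. The median fold was 1.66 for the 10 mRNAs and 1.13 for all genes. This pair is 1 library per group and belongs to the contrast that chose AGO2 and AGO3, so it has no test.

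The anti-PHGDH libraries also differed from each other. Replicate 1 was above replicate 2 for 9 of the 10 mRNAs, TNRC6A being the exception, and for 48.7% of all genes tested. DROSHA differed by 2.26 times (95% interval 1.81 to 2.86), DICER1 by 1.87 times (1.44 to 2.48), TNRC6B by 1.69 times (1.38 to 2.09) and AGO2 by 1.64 times (1.30 to 2.10). AGO3, AGO4 and DGCR8 had ratios nearer 1, at 1.10 (0.639 to 2.00), 1.05 (0.497 to 2.41) and 1.18 (0.864 to 1.63). The intervals of AGO3 and AGO4 also include the 1.64 of AGO2, so these 2 genes cannot be set apart from it. The share of mitochondrial reads was also higher in replicate 1. Leaving those genes out of the total raised the share of reads held by the 10 mRNAs from 0.0701% to 0.0984% in replicate 1 and from 0.0414% to 0.0454% in replicate 2, so the replicates moved further apart.

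Gene span played no part in the choice of the 10 genes. Each spans more of the genome than the median gene tested (30911 bases), with a median span of 126879 bases and a range from 31632 (DGCR8) to 290975 bases (TNRC6B). Across 9391 genes with a span, Spearman's rho between span and the log2 ratio was 0.07 within replicate number 2 and 0.15 for anti-PHGDH replicate 1 over IgG replicate 2, both of which share the IgG library. It was 0.14 between the PHGDH precipitates, replicate 1 over replicate 2, where no control enters. Genes are not independent replicates, and the rho is a description. Among the 4634 genes at least as long as DGCR8, 9.13% met the 2-fold condition.

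The genes most like AGO2 and AGO3 were found by Euclidean distance on log2(CPM + 1) over the 4 libraries. Nearest to AGO2 were FAM3A (distance 0.15), GNAI2 (0.21) and YY1AP1 (0.26). FAM3A, for example, was at 107.8 and 71.5 CPM in the PHGDH precipitates and at 0 and 36.7 CPM in the controls. Nearest to AGO3 were SPON1 (0.025), CEP83 (0.11) and NPL (0.16). Of the other members, the closest to AGO2 was DGCR8, at rank 483 among the genes tested, and the closest to AGO3 was TNRC6C, at rank 794. The distance includes the level, so it separates genes of the same profile at different abundance.

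The wider pathway was described with lists of 116 entries, 99 of which were tested. None of the 99 passed the limma threshold (lowest adjusted p = 0.677), nor that of edgeR or DESeq2. At an unadjusted p under 0.05 there was 1 gene with a higher mean in limma, EIF4E2, and there were 2 lower in edgeR and 1 lower in DESeq2. Of all 9524 genes, 261 were higher in limma at that level, 162 lower in edgeR and 149 lower in DESeq2. EIF4E2, a cap-binding protein, was at 239 and 244 CPM in the PHGDH precipitates and at 0 and 263 CPM in the controls, and its log2 fold change without IgG replicate 1 was -0.13. Of the 99, 7 met the 2-fold condition (9.30% of all genes did), and 64 were above IgG within replicate number 2 (63.1% of all genes). The median log2 fold change was 1.97 (all genes 1.92) and the median fold within replicate number 2 was 1.15 (all genes 1.13). Sums of reads, which follow the most abundant genes, differed more between lists. Within replicate number 2 the summed ratio was 1.70 (1.62 to 1.79) for translational repressors and RNP proteins, beside 1.76 for the 10 mRNAs. The median fold of that list was lower, 1.27 against 1.66 for the 10 mRNAs. The summed ratio was 1.26 (1.15 to 1.37) for decay genes. It was lowest among the lists for loading and Argonaute regulators, at 0.871 (0.842 to 0.901).

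Partners of the Microprocessor were spread around a fold of 1. Of 18 nuclear processing partners, 0 met the 2-fold condition, against 9.30% of all genes. The groups did not overlap for 2 with anti-PHGDH higher and for 4 with it lower (38.3% and 6.16% of all genes). The median fold within replicate number 2 was 1.00. DDX5, an RNA helicase of the Microprocessor, was at 98.0 and 104.4 CPM in the PHGDH precipitates and at 2123 and 136 CPM in the controls. METTL3, which methylates adenosines in primary transcripts, was at 22.6 and 24.7 CPM in the PHGDH precipitates and at 0 and 11.4 CPM in the controls. Of 5 tested genes for export and dicing, 3 had non-overlapping groups with anti-PHGDH higher and 1 with it lower (38.3% and 6.16% of all genes). The lower one, RAN, was at 503 and 977 CPM in the PHGDH precipitates and at 1376 and 1126 CPM in the controls. Within replicate number 2 the list had a median fold of 1.36 and a summed ratio of 0.931 (0.869 to 0.997). TARBP2, the RNA-binding partner of DICER1, was at 68.3 and 68.2 CPM in the PHGDH precipitates and at 0 and 40.5 CPM in the controls. XPO5, which exports the hairpins, was at 87.1 and 69.1 CPM against 3.61 and 49.4 CPM.

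Genes acting on or beside Argonaute were mixed. Of 15 tested genes for loading and regulation, 2 met the 2-fold condition, against 9.30% of all genes. LIMD1, an adaptor that binds Argonaute and TNRC6, was at 10.4 and 20.6 CPM in the PHGDH precipitates and at 0 and 3.80 CPM in the controls. TRIM71, a ubiquitin ligase and RNA-binding protein, was at 11.3 and 10.7 CPM against 0 and 3.80 CPM. HSP90AA1, the chaperone of Argonaute loading, was lower with anti-PHGDH (441 and 1661 CPM) than with IgG (2854 and 2267 CPM), with a log2 fold change of -1.57 (limma adjusted p = 0.677).

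The machinery that TNRC6 recruits, 22 deadenylation, decapping and decay genes, had a median fold of 1.27 within replicate number 2 (all genes 1.13). Of these, 0 met the 2-fold condition, against 9.30% of all genes. DCP1A, a decapping cofactor, was at 203 and 120.8 CPM in the PHGDH precipitates and at 2.58 and 62.7 CPM in the controls. CNOT1, the scaffold of the deadenylase complex, was at 56.5 and 25.5 CPM against 908 and 28.5 CPM. Of 16 translational repressors and RNP proteins, PABPC4, a cytoplasmic poly(A)-binding protein, met the condition at 193 and 151.3 CPM against 2.58 and 69.0 CPM. Of 11 genes for microRNA tailing and turnover, the poly(A) polymerase gene TENT4A did, at 36.2 and 21.4 CPM against 0 and 6.97 CPM. None of the 4 piwi genes passed the filter.

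**Figure D4:**
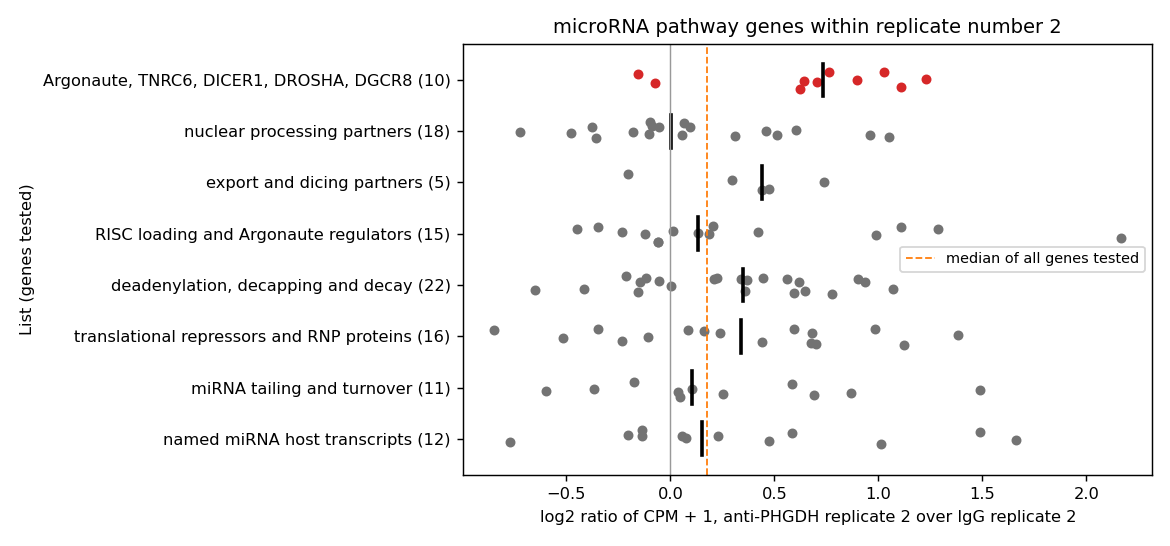
Log2 ratio of CPM + 1 of anti-PHGDH replicate 2 over IgG replicate 2, with 1 point per gene tested, for the 10 mRNAs (red) and the lists of other pathway genes (grey). Black bars are list medians, and the dashed line is the median of all genes tested, a fold of 1.13 (the 10 mRNAs have a median fold of 1.66).

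Among 12 tested host transcripts of microRNA genes, 3 met the 2-fold condition, against 9.30% of all genes. These 3 were at 0 in IgG replicate 1, and 13.3% of all genes at 0 there met it. The median fold of the list within replicate number 2 was 1.11 (all genes 1.13). CTDSP1 was at 127 and 72.3 CPM in the PHGDH precipitates and at 0 and 22.2 CPM in the controls. CTDSP2 was at 124 and 65.8 CPM against 0 and 22.8 CPM, and EVL, the host of miR-342, at 124 and 88.0 CPM against 0 and 43.1 CPM. CTDSPL, a further CTDSP gene of the list, did not meet the condition. Its log2 ratio within replicate number 2 was 0.054, against 1.66 for CTDSP1 and 1.49 for CTDSP2. CTDSP1 and CTDSP2 encode related phosphatases and carry microRNAs with the same seed, shown in capitals at chr2:218402657-218402677 (+) and chr12:57824658-57824679 (-) of GRCh38.p14.
hsa-miR-26b-5p: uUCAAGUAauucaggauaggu
hsa-miR-26a-5p: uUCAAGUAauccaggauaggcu
The host mRNAs rest on 428, 88, 0 and 35 reads for CTDSP1 and 418, 80, 0 and 36 reads for CTDSP2, (PHGDH precipitates first). These are reads assigned to the host genes and do not measure the microRNAs. PANK2 and PANK3, hosts of the miR-103 family, had the lowest fold changes of the list, with log2 values of -2.95 and -1.94 (limma adjusted p = 0.677 for each) that rested on 410.5 and 939 CPM in IgG replicate 1. Without that library they were -0.99 and 0.44.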

How the data were processed

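Per the submitters' processing notes, STAR 2.5.4b, featureCounts and hg38 were used; annotation, strand and duplicate handling are not given in the sources used here. The authors deposited 1 table of CPM values per library, in which values are whole multiples of the value of 1 read (at least 99.98% of values above 0 came out whole within 0.0006 CPM). Reads were recovered from these steps, and the 7 exceptions were rounded. None of them is a value of a member or of a listed pathway gene. ND4 and CYTB are among them and enter the share of mitochondrial reads. Groups and replicate numbers come from the sample titles.

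limma 3.58.1 (R 4.3.3) was fitted with an intensity trend to log2(CPM + 1) of the 9524 genes that reached 5 CPM in 2 or more libraries, two-sided and without covariates. The fit was run on simulated data whose means left out IgG replicate 1. Those data held no library at 0 for most genes, so they do not show how the fit behaves with IgG replicate 1. Fold changes understate low genes and move with the pseudocount for genes at 0 in a library. Count models on the recovered reads (DESeq2 1.42.0, and edgeR 4.0.16 with its quasi-likelihood test), other scalings, filters and pseudocounts, a replicate block and leaving out each library were alternatives. The deviations of libraries of the same number were not correlated across genes (r = 0.0058). IgG replicate 1, at 0 for most genes, enters that value, so it cannot show whether the numbers are pairs. The main fit did not take them as pairs.

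The members and gene lists were chosen with earlier results of these data known. All members were named. From each pathway list, the rule took the 2 genes with the largest and the 2 with the smallest log2 fold change, of which examples are given. LIMD1, TRIM71 and EVL were added after their values were seen, since they met the 2-fold condition. CTDSPL was also added after its values were seen, as a CTDSP gene that did not meet it. Spans and sequences come from RefSeq (GRCh38.p14), where 93.8% of symbols and all 10 members matched.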

Additional observations from a re-analysis of the deposited data

How the results depend on the processing

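At an adjusted p under 0.05, limma called 1 gene higher. No gene was called higher in DESeq2 (unadjusted p under 0.05: 89 higher, 149 lower), edgeR (21, 162), edgeR with the replicate block (10, 0), limma without its trend (363, 2) or limma on median-centred libraries (43, 359). limma called 4 with the replicate block, 6 without a filter and 11 at a pseudocount of 0.1. With 1 library left out, calls ran from 0 to 7129 higher and 0 to 1032 lower, the highest without IgG replicate 2, where the control is IgG replicate 1 alone. That was also the fit in which the 8 tested members were all called, and 78 of the other pathway genes (ranges of 0 to 8 and 0 to 78 over the libraries left out). In the other alternatives 0 of the 8 were called, with adjusted p from 0.464 to 1.00.

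The number of members 2-fold higher in every pair, 3 as reported, was 1 with TMM factors and 1 at a pseudocount of 5 (DROSHA in both), 0 after centring, 8 at 1.5-fold and 0 at 4-fold, and from 3 to 10 with 1 library left out (10 without IgG replicate 2 and 6 without anti-PHGDH replicate 2). After centring, the groups of 3 members did not overlap. The shares of all genes tested are given above for the reported setting and without IgG replicate 1 only. Counts under the other settings, here and for the pathway genes, have no such background and support nothing. Without IgG replicate 2 the control is a library at 0 for 61.9% of all genes tested. For the other pathway genes the number, 7 as reported, was 4 at a pseudocount of 5, 2 after centring, 12 without mitochondrial genes, 20 at 1.5-fold and 0 at 4-fold, and ran from 7 to 65 without 1 library.

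Scaling decided several signs. The median log2 fold change of all genes was -0.57 after centring and -0.050 after quantile normalization. That of the members was 0.21 after centring, and that of the other pathway genes -0.52 after centring and 0.053 after quantile normalization, with 0.12 to 4.00 without 1 library. Centring shifts IgG replicate 1, which is at 0 for most genes, by a constant. The sign changed for AGO4 (-0.48 after centring, -0.068 after quantile normalization), TNRC6C (-0.39 and -0.014), DICER1 (-1.06 after centring) and TNRC6A (-1.97 after centring, -1.18 after quantile normalization, -0.015 in edgeR, and -0.97 to 2.03 without 1 library, with -0.37 without anti-PHGDH replicate 2). Of 166 single-gene values under the alternatives, 156 were positive. The median log2 ratio within replicate number 2, 0.73, was 0.42 after centring. Without mitochondrial genes the members held 0.0984% and 0.0454% of reads in anti-PHGDH replicates 1 and 2. At 20 CPM, AGO3, AGO4, TNRC6A and TNRC6C were not tested. Depth limits AGO3, AGO4 and TNRC6A most, which had 7 to 18 reads each in the libraries numbered 2.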
